A study of Mus musculus with 6 samples.

Results

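The 10 genes described here encode proteins of the matrix and of the cells that lie under the gut epithelium: Fn1, Col3a1, Hmcn1, Bgn, Lum, Sparc, Mgp, Igfbp5, Ccl11 and Rgs5. They were taken by symbol from the authors' table of probe sets that differ between Nod2-/- and wild type (WT), where they are 10 of 744 genes with 1 symbol and 27 of 1053 probe sets (of 28853 on the array), 17 of them for Hmcn1. RNA came from crypt base epithelium cut by laser from the ileum of mice aged 8 weeks on the C57BL/6J background, 3 arrays from WT and 3 from Nod2-/-, with methacarn fixation, paraffin embedding and 100 ng of RNA per array in both groups. Nod2 encodes a sensor of bacterial cell wall fragments. The labels call the captured material Paneth cells, and the crypt base was cut by its place in the section. They do not say how the Nod2 allele was disrupted, or that each array is a separate mouse, so the spread between arrays may be partly technical.

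The lamina propria around the crypt holds fibroblasts, which secrete collagens, fibronectin and small leucine-rich proteoglycans, and capillaries, which are wrapped by pericytes. A basement membrane separates them from the epithelium. Stromal cells give the crypt its mechanical support and many of the signals that keep stem cells in place. Fn1, Col3a1, Bgn, Lum, Sparc and Mgp are typical products of such fibroblasts, and Rgs5 is a widely used pericyte marker, whereas the crypt epithelium is defined by other genes.

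The table that supplied these genes was itself selected on the genotype difference: its headers ask for a fold threshold, here a log2 difference of at least 0.41, or for one of at least 0.32 together with p of 0.05 or less in an unpaired test. The differences between genotypes below are therefore a description and were given no test. Intensities were on a linear scale as deposited, after RMA (background correction, quantile normalization and summary of probes), and are given as log2 intensity. The median of each array lay between 5.11 and 5.15. The correlation of log2 values between arrays across probe sets lay between 0.971 and 0.987, which describes the arrays and tests nothing. Nod2 has no place in the authors' table, so the targeted gene does not check the labels here. Where a gene has several probe sets, the one with the highest mean stands for it.

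Averaged over the arrays, all 10 genes were higher in Nod2-/-, a direction that the choice of these genes fixes and that 46.5% of all probe sets share. Their median difference was 0.75 (log2), a fold of 1.68, beside a median of -0.01 over all 28853 probe sets. The mean log2 intensity over the 10 genes was 8.26 ± 0.31 (SD, n = 3 arrays) in Nod2-/- and 7.47 ± 0.47 in WT. By array it was 6.93, 7.73 and 7.74 in WT and 8.01, 8.61 and 8.16 in Nod2-/-. WT replicate 1 was the low array, and without it the median difference was 0.44, or 1.35-fold. In 6 of the 10 every Nod2-/- array lay above every WT array, beside 3.42% of all probe sets, and a difference of at least 0.41 in that direction was found for 2.11% of all probe sets. These shares come from the contrast that chose the genes, and nothing is read from them. In bulk RNA of this kind, more cells of a type and more RNA per cell cannot be told apart.

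**Figure D1:**
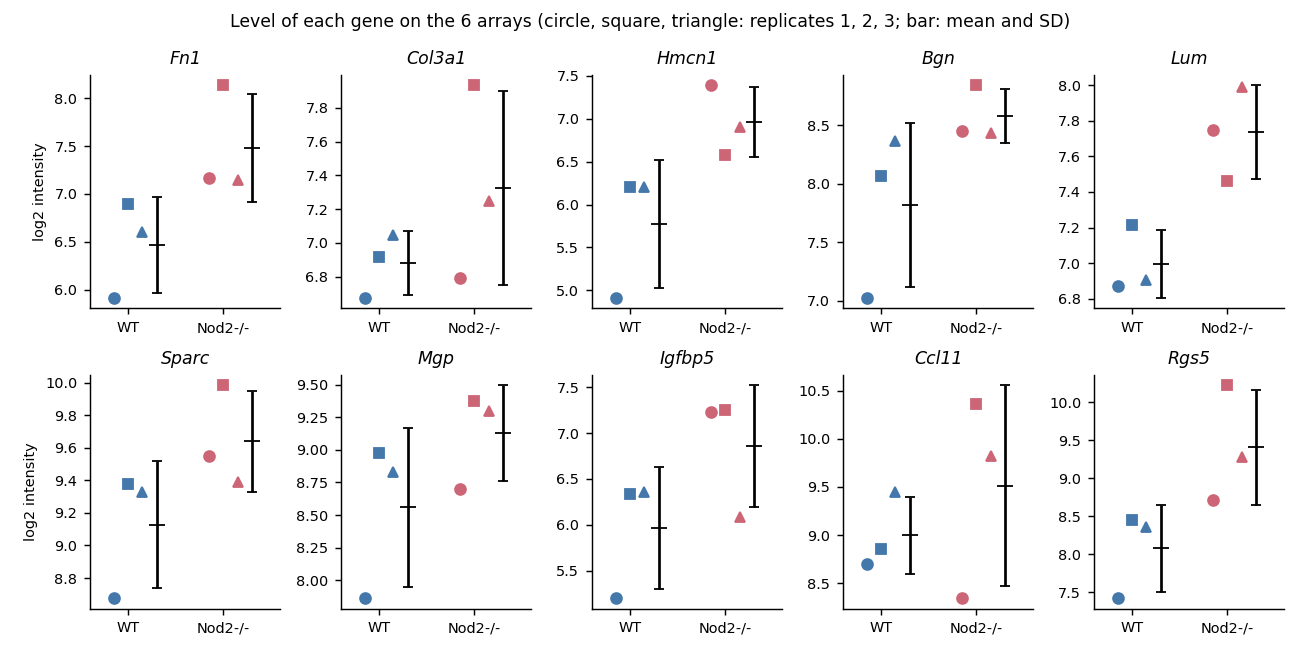
Log2 intensity (y axis) of each of the 10 genes on the 3 WT and 3 Nod2-/- arrays, with circles, squares and triangles for replicates 1, 2 and 3 and a bar for the mean and SD of each group. WT replicate 1 is the lowest WT array in all 10 panels, and Nod2-/- replicate 2 is the highest array in 8.

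Fn1 encodes fibronectin, the glycoprotein that links integrins on the cell surface to collagen (chromosome 1, 71632097 to 71699746, minus strand, mm9). Its log2 intensity was 5.92, 6.89 and 6.60 in WT replicates 1 to 3 and 7.17, 8.14 and 7.15 in Nod2-/- replicates 1 to 3. Nod2-/- replicate 2 stood about 1 log2 unit above the other Nod2-/- arrays, WT replicate 1 was the lowest, and the groups did not overlap. The means were 7.48 ± 0.57 and 6.47 ± 0.50, so the difference was 1.01 on the log2 scale (standard error 0.37 from limma), or 2.02-fold. With 1 array left out it lay between 1.61-fold and 2.33-fold.

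Col3a1, the chain of the fibrillar type III collagen that is found beside type I collagen in soft tissue (chromosome 1, 45368491 to 45405865, plus strand), measured 6.67, 6.92 and 7.05 in WT and 6.79, 7.93 and 7.25 in Nod2-/-. Nod2-/- replicate 1 lay among the WT arrays, so the groups overlapped. The log2 difference of 0.45 (standard error 0.30) was 0.14 without Nod2-/- replicate 2, so that a fold of 1.36 became 1.10. Col3a1 had the smallest difference of the 10 genes, and the table begins at a log2 difference of 0.41 for entries by fold alone.

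The small leucine-rich proteoglycans, which bind collagen fibrils and set their spacing, were represented by biglycan and lumican. Bgn (chromosome X, 70728962 to 70741735, plus strand) measured 7.03, 8.07 and 8.36 in WT and 8.46, 8.84 and 8.44 in Nod2-/-. The groups did not overlap, but WT replicate 3 lay only just below the lowest Nod2-/- array. WT replicate 1 carried much of the 1.69-fold difference, which was 1.29-fold without it. Lum (chromosome 10, 97028437 to 97035337, plus strand) measured 6.87, 7.22 and 6.90 in WT and 7.75, 7.46 and 7.99 in Nod2-/-. The groups did not overlap. It had the smallest residual SD of the 10 (0.23), and a difference of 0.74 (log2, standard error 0.16). Its fold of 1.67 stayed between 1.53 and 1.84 whichever array was left out.

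Sparc and Mgp are secreted proteins of the matrix that are not part of its fibres. Sparc binds collagen and calcium and modulates how cells attach (chromosome 11, 55208003 to 55233368, minus strand). It measured 8.68, 9.38 and 9.33 in WT and 9.55, 9.98 and 9.39 in Nod2-/-, without overlap, although WT replicate 2 and Nod2-/- replicate 3 were almost equal. Its fold was 1.43, and 1.22 without WT replicate 1. Mgp, a vitamin K-dependent inhibitor of calcification (chromosome 6, 136820956 to 136824326, minus strand), measured 7.86, 8.98 and 8.83 in WT and 8.70, 9.38 and 9.30 in Nod2-/-. Nod2-/- replicate 1 lay below WT replicates 2 and 3, so the groups overlapped, and the fold of 1.48 became 1.16 without WT replicate 1.

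Igfbp5 and Ccl11 are signalling proteins that stromal cells release. Igfbp5 binds insulin-like growth factors and holds them in the matrix (chromosome 1, 72904610 to 72921439, minus strand). It measured 5.20, 6.34 and 6.35 in WT and 7.23, 7.25 and 6.09 in Nod2-/-. WT replicate 1 and Nod2-/- replicate 3 were the low arrays of their groups, and the latter lay among the WT arrays. The log2 difference of 0.89 (standard error 0.45) was 0.51 without WT replicate 1. Ccl11 is eotaxin, the chemokine that draws eosinophils into the gut (chromosome 11, 81871353 to 81876457, plus strand). It measured 8.69, 8.85 and 9.45 in WT and 8.34, 10.36 and 9.83 in Nod2-/-, so the lowest and the highest of the 6 arrays were both Nod2-/-. Its difference of 0.51 was no larger than its standard error of 0.54, and without Nod2-/- replicate 2 it was 0.09.

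Rgs5 encodes a regulator of G-protein signalling that is abundant in pericytes and other mural cells. Among the probe sets that stand for the 10 genes, that of Rgs5 had the largest difference. Its second probe set, given below, had a smaller difference than Fn1 and Hmcn1. In the probe set at the end of the gene (chromosome 1, 171624625 to 171625929, plus strand) it measured 7.42, 8.45 and 8.36 in WT and 8.71, 10.22 and 9.28 in Nod2-/-. The groups did not overlap and each Nod2-/- array lay above every WT array. The means were 9.40 ± 0.76 and 8.08 ± 0.57, which is 2.51-fold (standard error 0.46 on the log2 scale), and between 1.89-fold and 3.19-fold with 1 array left out. A second probe set that spans the gene (171585632 to 171625944) overlaps the first on the genome. It measured 6.89, 7.57 and 7.58 in WT and 7.36, 9.09 and 8.29 in Nod2-/-, a 1.87-fold difference in which Nod2-/- replicate 1 lay among the WT arrays. Both probe sets placed WT replicate 1 lowest and Nod2-/- replicate 2 highest.

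Hmcn1 encodes hemicentin 1, a very large protein of the extracellular matrix with many immunoglobulin domains that is found at basement membranes. The table names 17 probe sets for it, each covering between 108 and 282 bases of a stretch of 237 kb on chromosome 1 (152470294 to 152707507, minus strand). They did not give one answer: 15 were higher in Nod2-/- and 2 were lower, and the log2 difference ran from -0.72 to 1.39 around a median of 0.67. All 17 had passed the thresholds of the table, and any probe sets of the gene below them are not named here. These counts and the median describe the entries of the table and not the whole gene. Only 2 of the 17 had arrays that did not overlap. Most were dim: in 11 of them the mean of the WT arrays was under 5.11, the lowest array median, and signal over background was not analysed.

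The Hmcn1 probe set with the highest mean (152619566 to 152619693) measured 4.91, 6.20 and 6.21 in WT and 7.39, 6.58 and 6.91 in Nod2-/-, a 2.27-fold difference without overlap. Here Nod2-/- replicate 1 was the highest array. Its neighbour with the largest difference (152620894 to 152621035) measured 4.49, 4.73 and 4.52 in WT and 4.58, 7.05 and 6.28 in Nod2-/-. In that probe set Nod2-/- replicate 1 was level with WT, and the other Nod2-/- arrays were far above it. In 8 of the 17 Nod2-/- replicates 2 and 3 lay above every WT array while Nod2-/- replicate 1 did not, as in this neighbour. The thresholds of the table fix such a count in part, and the share over all probe sets was not taken, so nothing is read from it. In both lower probe sets WT replicate 3 was the highest of the 6 arrays. In one of them (152493708 to 152493986) that array measured 7.35, against 4.73 and 5.30 in the other WT arrays and 4.73, 5.91 and 4.59 in Nod2-/-. With Hmcn1 left out, the median difference of the remaining genes was 0.74.

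**Figure D2:**
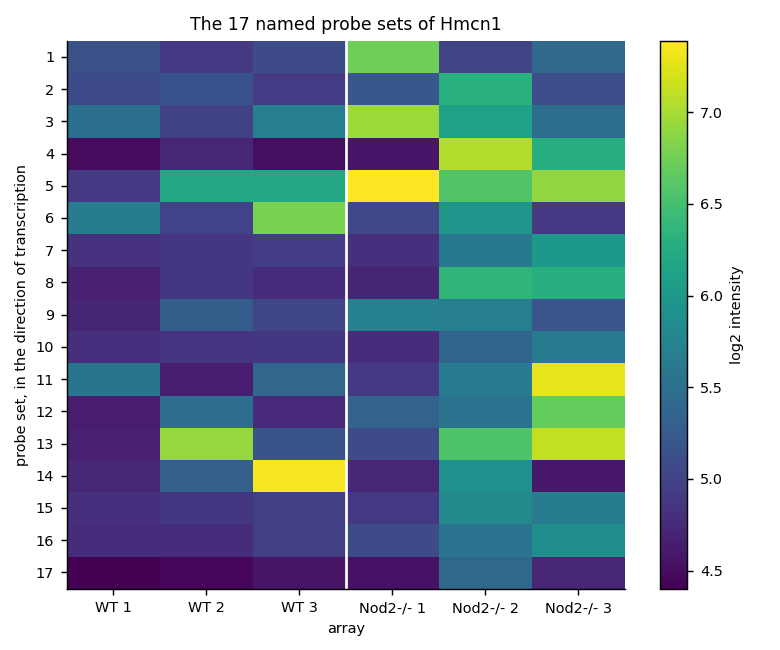
Log2 intensity (colour) of the 17 probe sets that the authors' table names Hmcn1 (rows, numbered in the direction of transcription) on the 6 arrays (columns). Rows differ in which Nod2-/- array is brightest: replicate 1 in 4, replicate 2 in 7 and replicate 3 in 6.

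The array columns in the authors' table bear a number in their names. WT replicate 1 and Nod2-/- replicate 1 have the same one, called the first here, and the remaining 4 arrays have the second. Its meaning is not given in the sources used here. Each number covers both genotypes, so the contrast between numbers is orthogonal to that between genotypes. WT replicate 1 enters both, however, and its low values were known when the genes were chosen, so the values below are no independent support for them. All 10 genes were lower in the arrays of the first number, where 56.5% of all probe sets were lower, and the median over the 10 was -0.60 (log2) beside -0.02 over all probe sets. The values were -1.10 (standard error 0.37) for Ccl11, -1.01 (standard error 0.27) for Rgs5 and -0.08 (standard error 0.19) for Lum. Their order depended on single arrays: without Nod2-/- replicate 1 Ccl11 was at -0.46, and Hmcn1 (-1.29), Bgn (-1.19) and Igfbp5 (-1.15) were lower than it, while without WT replicate 1 Ccl11 was at -1.75. Of the 17 Hmcn1 probe sets 15 were lower in the arrays of the first number and 2 were higher. Mgp averaged 8.28 in the arrays of the first number and 9.12 in those of the second, a difference of -0.84 (standard error 0.12).

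No gene passed the test of this contrast. With limma, genotype in the model and adjustment over 28853 probe sets, the adjusted p was 0.208 for Mgp, the lowest of the 10, and 0 of the 10 passed, as did 0% of all probe sets. Without adjustment, Mgp, Rgs5 and Ccl11 had p under 0.05, which is 3 of 10 where 4.01% of all probe sets were lower at that p. Both arrays of the first number weighed on this contrast. The median was -0.33 without WT replicate 1 and -0.91 without Nod2-/- replicate 1, and it lay between these with any other array left out. Without WT replicate 1, Igfbp5, Hmcn1 and Lum were higher in the remaining array of the first number, by 0.56, 0.65 and 0.02.

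Within the arrays of the first number, 1 of each genotype, 9 genes had the higher value in Nod2-/-, and the median over the 10 was 1.07 (log2). The exception was Ccl11, at -0.35. Within the second number, with 2 arrays of each genotype, all 10 were higher on average, with a median of 0.57, and in 9 of them, all but Igfbp5, both Nod2-/- arrays lay above both WT arrays. Over all probe sets 16% did so. The genes were chosen on the genotype difference over these same arrays, which fixes the counts within each number in part. They are a description, and nothing is read from them. Under the first and the second number the genotype difference was 1.29 and 1.34 for Rgs5, 2.03 and 0.32 for Igfbp5 and 1.43 and 0.42 for Bgn. For Hmcn1 it was 2.48 and 0.54 in the probe set with the highest mean, but most of its other probe sets had the higher value under the second number.

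The difference between the numbers was tested in limma as an interaction of genotype with number, which is orthogonal to the genotype contrast and has the same limit. It was 1.01 ± 0.33 (standard error) for Bgn and -1.29 ± 0.51 for Ccl11, with adjusted p of 0.692 and 0.752 from limma. For Hmcn1 it was 1.94 ± 0.23 in the probe set with the highest mean (adjusted p 0.458 from limma) and -1.95 ± 0.50 in its neighbour with the largest genotype difference (adjusted p 0.625 from limma). The interaction was below 0 in 12 of the 17 Hmcn1 probe sets and above 0 in 5, so the gene has no single direction here. Rgs5 had -0.05 in the probe set at the end of the gene and -0.65 in the one that spans it. None of the 10 passed, and 0% of all probe sets did. Without adjustment Bgn and the Hmcn1 probe set with the highest mean had p under 0.05, beside 7.06% of all probe sets. Over all 17 Hmcn1 probe sets, 5 had such a p with an interaction below 0 and 2 with one above 0, and 0 passed after adjustment.

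**Figure D3:**
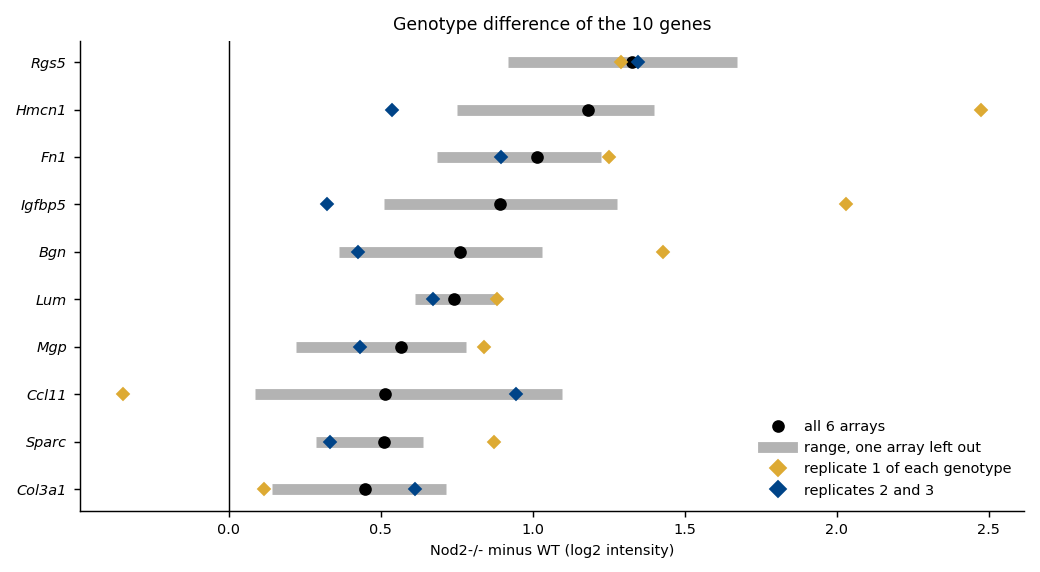
Difference of mean log2 intensity, Nod2-/- minus WT (x axis), for each gene over all 6 arrays (black), its range with 1 array left out (grey bar), and within replicate 1 (yellow) and replicates 2 and 3 (blue) of both genotypes. No grey bar reaches 0, and the yellow mark of Ccl11, at -0.35, is the only value below it.

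A low WT replicate 1 raises the difference between genotypes that put genes in the table, and its values were known when the genes were chosen. The counts of arrays within a genotype are therefore a description, fixed in part by that choice, and nothing is read from them. WT replicate 1 was the lowest of the WT arrays in all 10 genes, beside 35.8% of all probe sets, and in 12 of the 17 Hmcn1 probe sets. It was at least 0.5 below the mean of the other WT arrays in 7 of the 10 genes, beside 4.28% of all probe sets. The median gap over the 10 genes was -0.91. Among the Nod2-/- arrays replicate 2 was the highest in 8 of the 10, beside 39.2% of all probe sets, with a median gap of 0.55 to the mean of the others. The exceptions were Lum, in which it was the lowest and replicate 3 the highest, and Hmcn1, in which it was the lowest and replicate 1 the highest. The lowest Nod2-/- array was replicate 1 for Mgp, Ccl11, Col3a1 and Rgs5 (4 of 10, beside 43.2% of all probe sets), and replicate 3 for Fn1, Igfbp5, Bgn and Sparc.

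After the genotype means were removed, the correlation of 2 genes over the 6 arrays had a median of 0.58 over the 45 pairs of the 10 genes, and 36 pairs (80%) were above 0. Over 269011 pairs of the other genes in the authors' table the median was 0.02, and over the 95266 pairs in which both genes were higher in Nod2-/-, as all 10 are, it was 0.12. Of these background pairs 51.5% and 57.1% were above 0. All pairs share the same 6 arrays, of which 4 deviations are free, so these values are a description. The low values of WT replicate 1, known when the genes were chosen, enter every pair. The highest was 0.96, between Fn1 and Sparc, the lowest -0.44, between Lum and Col3a1. Lum followed the others least, with a median of -0.20 against them, while Rgs5 had 0.81, Sparc 0.79 and Fn1 0.78. With the number in the column names removed as well, the median over pairs was 0.37, and 64.4% of the 45 pairs were above 0. Without WT replicate 1 the median was 0.38, and 62.2% of the pairs were above 0. With Nod2-/- replicates 1, 2 and 3 left out in turn the median was 0.79, 0.71 and 0.70, and without WT replicate 2 or 3 it was 0.59. The pairs of other genes were not matched to the 10 by level. They were not recomputed under these settings either, so these medians have no background beside them.

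**Figure D4:**
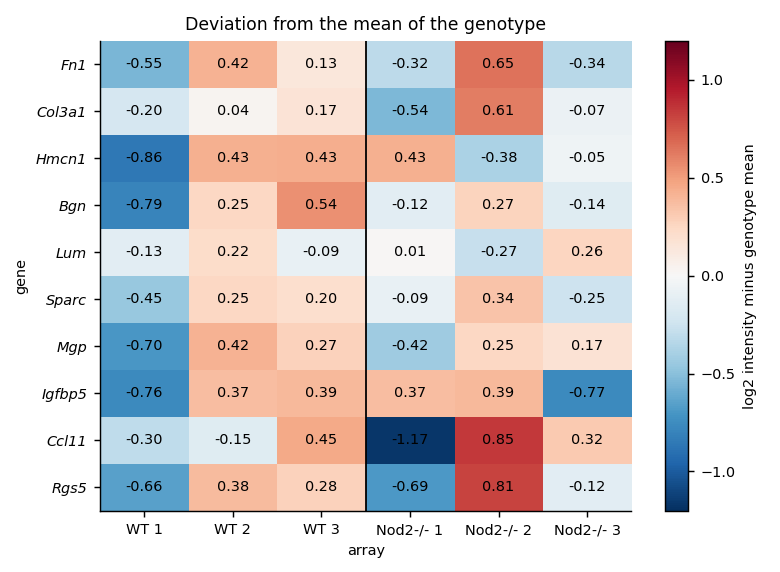
Log2 intensity minus the mean of the genotype (colour and printed value) for the 10 genes (rows) on the 6 arrays (columns). The column of WT replicate 1 is below 0 in every row, from -0.86 for Hmcn1 to -0.13 for Lum, and that of Nod2-/- replicate 2 is above 0 in every row but those of Lum and Hmcn1.

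Among the other 734 genes with 1 symbol in the authors' table, 31 had deviations that correlated with the mean deviation of the 10 genes at over 0.9. The 8 most alike over the 6 arrays were Got1 (correlation 0.996), Naa40, Cbx5, Slc41a1, Fcer1g, Cmtm3, Gsdmc2 and Rnu3a (0.981). Of these, Fcer1g encodes the common gamma chain of Fc receptors in myeloid and mast cells, and Gsdmc2 a gasdermin of the gut epithelium. Fcer1g measured 5.94, 7.02 and 6.84 in WT and 6.81, 7.55 and 7.09 in Nod2-/-. Gsdmc2 measured 4.80, 7.00 and 7.28 in WT and 8.76, 9.98 and 8.75 in Nod2-/-. Naa40 and Cbx5 were lower in Nod2-/- on average, by 0.46 and 0.44 on the log2 scale, while replicate 1 was their lowest array in both genotypes and replicate 2 the highest in Nod2-/-. These genes were named for that likeness, so it is no finding.

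Other genes of the stroma and of the pathways around these 10 were sought in the authors' table by symbol. The lists used here and below were chosen with earlier results of these data known, so their shares are a description. A gene without a place in the table was below its thresholds or not measured under its symbol, and its level is not known here. The whole table holds 447 genes higher and 297 lower in Nod2-/-, and 3.65% of all probe sets on the array have a place in it. That share also counts probe sets with several symbols or none, which the search by symbol could not match. Of 37 genes of fibroblasts and interstitial matrix, 8 (21.6%) were in the table, all of them among the 10 described, so the choice of those genes fixes this share. Col1a1, Col1a2, Dcn, Pdgfra and Postn, which define fibroblasts as much as these do, were not in it. Of 12 pericyte genes it held Rgs5 and not Pdgfrb, Cspg4 or Notch3. Of 22 genes of basement membranes it held Hmcn1 and no laminin, nidogen or type IV collagen chain. It held 1 of 11 smooth muscle genes, Actg2 (1.35-fold), and 1 of 14 genes of vascular endothelium, Emcn (1.39-fold, with a WT mean of 4.92 below every array's median). None of 7 genes of lymphatic endothelium, 7 of enteric glia, 19 stromal niche ligands and hedgehog targets, 18 matrix proteases and their inhibitors or 19 general epithelial genes had a place in it.

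Receptors and partners of the 10 genes were sought in the same way, and their shares are again set beside the 3.65% of all probe sets. Of 20 integrins and other matrix receptors the table held 1 (5%), Itga2, a chain of a collagen receptor, which averaged 6.58 ± 0.56 in Nod2-/- and 7.00 ± 0.08 in WT (SD, n = 3 each). In that difference of -0.43 Nod2-/- replicate 2 was the low array, at 5.94, and the other Nod2-/- arrays were at 7.01 and 6.79. Of 16 TGF-beta ligands, receptors and early targets it held 1 (6.25%), Tgfbr1 (1.31-fold higher). Of 17 genes of the insulin-like growth factor system it held 3 (17.6%). Beside Igfbp5 these were Igfbp7, a binding protein of vessel walls, which measured 8.17, 8.66 and 9.03 in WT and 9.36, 9.07 and 9.17 in Nod2-/- (1.49-fold, no overlap), and the insulin receptor Insr (-0.45). Of 13 genes of the eotaxin axis and eosinophils it held 1 (7.69%), Ccl11, and not the eotaxin receptor Ccr3 or the granule genes Epx and Prg2.

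Markers of leukocytes and of the epithelium had places in the table as well, again beside 3.65% of all probe sets. These lists too were chosen with earlier results known, which may fix their shares in part, and nothing is read from them. Of 20 macrophage and class II genes 6 (30%) were in the table, all higher in Nod2-/- on average, with a median of 0.53, and their summed intensity lay between 484 and 2297 in WT and between 1645 and 2275 in Nod2-/-. WT replicate 1 was the array at 484, as it was the lowest for the stromal genes. In the other WT arrays the macrophage sum was as high as in Nod2-/-. Cd74, the class II invariant chain, measured 7.51, 10.24 and 9.94 in WT and 10.47, 9.25 and 9.87 in Nod2-/-. Of 11 mast cell genes 3 (27.3%) were in the table, and Mcpt1, a protease of mucosal mast cells, reached 7.56 in Nod2-/- replicate 3 against 4.59 to 4.68 in WT. Of 20 lymphocyte and plasma cell genes 1 (5%) was in it, Ighm (-0.93). Ighm measured 4.38, 6.65 and 5.32 in WT and 4.32, 4.37 and 4.87 in Nod2-/-, so WT replicate 1 lay among the Nod2-/- arrays. Of 20 Paneth cell genes 5 (25%) were in it, all higher in Nod2-/- on average, with a summed intensity of 9501 to 10447 in WT and 13648 to 19494 in Nod2-/-. These were Reg3g, Reg3b, Mptx1, Clps and Pnliprp2. WT replicate 1 was the lowest array for Reg3g (9.54), Reg3b (7.42) and Mptx1 (6.24). For Clps (12.03) and Pnliprp2 (12.08) it was the highest of the WT arrays. Lyz1, Mmp7 and the alpha-defensins, which define Paneth cells, were not in it, so their level does not check the label of the captured cells here. For the 8 fibroblast and matrix genes the sum was 1503 to 2558 in WT and 2461 to 4305 in Nod2-/-. What part these cells have in the values of the 10 genes was not tested.

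**Figure D5:**
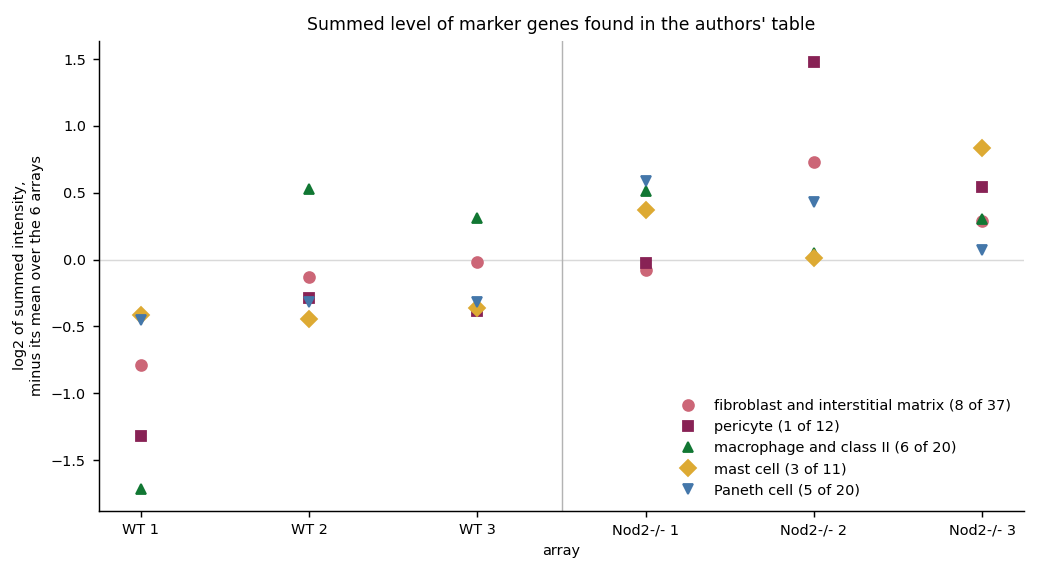
Log2 of the summed intensity of the marker genes found in the authors' table, minus its mean over the 6 arrays (y axis), for 5 cell types on each array (x axis). WT replicate 1 is the lowest array for the matrix, pericyte, macrophage and Paneth cell sums, and Nod2-/- replicate 2 the highest for the matrix and pericyte sums. The Paneth cell sum joins genes that differ in this, since WT replicate 1 is the highest WT array for Clps and Pnliprp2.

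Of the 10 genes, 5 lie on chromosome 1 (Fn1, Igfbp5, Col3a1, Hmcn1 and Rgs5) and 2 on chromosome 11. By mean level over the arrays, each in its probe set with the highest mean, all 10 were above the 75th percentile of probe sets. Hmcn1 was the lowest, at 76.4, and its other probe sets had lower means, most of them dim. RefSeq (GRCm38.p6) supplied promoter sequence for 6 of the 10: Col3a1, Igfbp5, Hmcn1, Rgs5, Sparc and Bgn. The 120 bases before the annotated start are shown for 4 of them. Rgs5, Sparc and Bgn moved together across the arrays, and Hmcn1 did so less in its probe set with the highest mean. The correlations of the other Hmcn1 probe sets with these genes were not taken. Capitals mark matches to short motifs that were searched in this window on both strands: CCAAT, the GC box GGGCGG, the E-box CANNTG, the AP-1 site TGANTCA and the CArG box, and on the strand shown the TATA box TATAAA.
Rgs5 (chr1:169655381-169655500, plus strand): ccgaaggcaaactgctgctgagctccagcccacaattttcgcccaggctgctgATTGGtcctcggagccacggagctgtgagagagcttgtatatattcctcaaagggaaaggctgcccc
Hmcn1 (chr1:150993436-150993555, minus strand): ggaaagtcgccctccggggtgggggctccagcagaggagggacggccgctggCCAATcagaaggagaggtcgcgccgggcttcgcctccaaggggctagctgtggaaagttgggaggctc
Sparc (chr11:55420081-55420200, minus strand): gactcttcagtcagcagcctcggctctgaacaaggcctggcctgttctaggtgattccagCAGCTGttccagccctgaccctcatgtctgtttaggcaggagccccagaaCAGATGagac
Bgn (chrX:73483481-73483600, plus strand): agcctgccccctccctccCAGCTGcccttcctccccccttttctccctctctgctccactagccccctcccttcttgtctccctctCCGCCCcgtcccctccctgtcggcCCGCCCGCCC

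These promoters shared no single motif. CCAAT was found in 2 of the 6, Rgs5 and Hmcn1, and in 21.3% of the 32851 promoters of the table over the same window. The GC box was found in Bgn alone, where 2 of its 3 matches overlap, and in 26.5% of all promoters. The E-box was found in 4 of the 6 (Col3a1, Igfbp5, Sparc and Bgn) and in 40.2% of all. The TATA box was found in Col3a1 alone, away from its usual place, and in 4.19% of all. The AP-1 site and the CArG box were in none of the 6, and in 3.41% and 0.749% of all promoters. A match describes these letters and is not evidence of binding.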

How the data were processed

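The authors deposited an intensity for each of 28853 probe sets on each array, on a linear scale between 18.8 and 12280. RMA was used, per the submitters' processing notes. Per the file headers, the authors' table was made with mouse build mm9 and release 31 of the annotation of the MoGene 1.0 ST array. The intensities of its 1053 probe sets were the same as in the value table (relative tolerance 0.001). Recomputing its deposited ratio and log2 columns, both relative to the WT median, gave the same values throughout (tolerance 0.01), as did the authors' log2 fold and absolute fold in all 962 that have one. The authors' signed fold score and their 287 p-values, per the file headers, were not used. Of its probe sets 855 have 1 symbol, 104 several and 94 none, and symbols were updated by Entrez number through RefSeq.

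The fits were made on log2 values of the whole array with no filter, in R 4.3.3 with limma 3.58.1, with p adjusted by Benjamini-Hochberg at a threshold of 0.05, and were tested on simulated data. Python 3.11.15 gave the descriptions. Alternatives were each array left out, the replicate number or the number in the column names as a block, linear means, centring on the median or 75th percentile, dim probe sets left out, and a trended and robust prior. The genes, lists and tests were chosen with earlier results of these data known, including the low values of WT replicate 1. The genes named are the 10, list members in the table, and the 8 most alike. Precision is limited by the small number of arrays.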

Additional observations from a re-analysis of the deposited data

How the results depend on the processing

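The median log2 difference of the 10 genes lay between 0.44 and 0.88 with 1 array left out, and between 0.57 and 1.07 within the numbers, and no alternative turned its direction. The choice of the genes on these same arrays fixes that direction in part, so its stability is no independent support. With linear means it was 0.72, and with arrays centred on the median or the 75th percentile 0.75 and 0.73. With the median of each gene's probe sets, chosen after seeing the data, it was 0.70. Of single genes, Ccl11 turned to -0.35 within the first number, and 2 further Hmcn1 probe sets gave -0.72 and -0.52. For the number in the column names, the difference with 1 array left out ran from -1.15 to 0.56 for Igfbp5, from -1.29 to 0.65 for Hmcn1 and from -0.21 to 0.022 for Lum, with the highest value of each without WT replicate 1. Lum was also above 0 without Nod2-/- replicate 3, at 0.014. The count of probe sets that passed limma between genotypes was 0 (1106 at an unadjusted p under 0.05), and 3 with dim probe sets left out, 3 with a trended and robust prior, and 0 to 2 with 1 array left out. For the number it was 0 (2655 unadjusted), and 5 and 21 under the same alternatives. For the interaction it was 0 (2036 unadjusted), and 26 with the trended and robust prior. None of the 10 genes passed in the number or interaction fits. The cause was not tested. With the replicate number as a block the genotype count was 0 and the median difference 0.75. Same-numbered arrays of the genotypes had deviations that correlated across probe sets at 0.20, -0.02 and 0.06, so the numbers were not taken to pair the samples. Signal over background was not analysed.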
